A study of Homo sapiens with 36 samples.

Results

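The forkhead transcription factor genes are a family that encodes proteins with the same DNA-binding fold, the winged helix. The 38 genes described here were given as a list of names, and all 38 were found among the 20144 nuclear protein-coding genes of the human annotation. The chromatin of these genes was profiled in DU145, an established prostate cancer line grown from a brain metastasis, which was kept in DMEM with 10% serum. Chromatin immunoprecipitation and sequencing (ChIP-seq) was done in cells with a control short hairpin RNA (shCTR) and in cells with a hairpin against the long isoform of PHF19 (shPHF19L#4). Each condition had 2 replicates for each antibody, and both conditions are bulk cultures of the same line with no other drug or treatment in the labels. The comparisons ask which forkhead genes carried the Polycomb machinery in control cells and how its level at those genes differed when PHF19 was depleted.

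Forkhead proteins include pioneer factors that open closed chromatin, regulators of organ formation that are made in narrow sets of tissues, and broadly made regulators of growth and metabolism. In the prostate FOXA1 is the best-known member, a pioneer factor of luminal cells. Polycomb repressive complex 2 (PRC2) places the repressive mark H3K27me3 on histone H3 and keeps developmental genes silent in cells that do not need them. EZH2 is its catalytic subunit and SUZ12 its scaffold, and PHF19 and MTF2 are alternative Polycomb-like subunits that bring the complex to CpG-rich DNA.

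Each gene was read over an interval from 2.5 kb upstream of its start to its end in the hg19 build, and a peak counted if it overlapped the interval by at least 1 bp. For EZH2, SUZ12, H3K27me3 and MTF2, a region is a stretch called in both replicates of a condition, formed by merging overlapping peaks of the 2 lists. For PHF19, a region is a row of the authors' DiffBind table, which compares PHF19 ChIP with input in shCTR over both replicates. Concentrations are DiffBind's mean log2 read concentrations over the 2 replicates of a group. No scaling to the width of a row is stated for them, so levels of rows of unlike width are not directly comparable. They come as authors' means with no value per replicate, so no spread can be set beside them. Where a pair of concentrations stands without its conditions, shCTR comes first, then shPHF19L#4. Read totals of the libraries were not in the files, so the depth is unknown.

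The peak lists differed widely in size between replicates. PHF19 had 1072 peaks in replicate 1 and 14218 in replicate 2. MTF2 in shCTR had 2516 and 32254 peaks, and in shPHF19L#4 4216 and 34623. H3K27me3 in shCTR had 39254 and 15994 peaks, and in shPHF19L#4 35128 and 57026, so the order of the replicates turned around between the conditions. EZH2 had 2060 and 1236 peaks in shCTR and SUZ12 1523 and 232. Because replicate 2 of MTF2 alone marked 49.6% of all genes in shCTR and 51.0% in shPHF19L#4, membership was read from the regions shared by both replicates. The part that list size had in any count was not tested.

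In control cells the forkhead genes fell into a Polycomb-bound group and a Polycomb-free group. A PHF19 region lay in 13 of the 38 genes, against 4.65% of all protein-coding genes. H3K27me3 regions lay in 17 members, against 13.2% of all genes, and MTF2 regions in 11, against 5.0%. EZH2 regions lay in 9 members, against 2.22%, and SUZ12 regions in 3, against 0.253%. PHF19, EZH2, MTF2 and H3K27me3 were found together at 8 members, which were FOXA2, FOXB1, FOXB2, FOXC1, FOXF1, FOXF2, FOXI3 and FOXL2, against 1.86% of all genes. FOXB1, FOXC1 and FOXI3 carried all 5 of the profiled features, against 0.253% of all genes. Another 20 members had no region of any kind and are called free of Polycomb here, against 86.0% of all genes. The replicates weighed unequally in 3 of these counts. Without replicate 1, SUZ12 was found at 9 members, against 0.973% of all genes, and MTF2 at 33, against 49.6%, and 5 members were free of Polycomb, against 46.0%. Without replicate 2, 18 members had no shCTR peak, against 79.0%. FOXD4, FOXI1, FOXJ3 and FOXM1, 4 members, had no peak in any shCTR list, against 43.1%.

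List by list, PHF19 peaks marked 9 members in replicate 1 and 19 in replicate 2, against 3.79% and 23.4% of all genes. EZH2 peaks marked 10 and 13 members, against 3.28% and 5.05%, and SUZ12 peaks marked 3 and 9, against 1.10% and 0.973%. H3K27me3 peaks marked 20 and 18 members in shCTR, against 19.6% and 14.8%. In shPHF19L#4 they marked 18 and 25, against 19.2% and 29.1%. For the replicate 1 list of MTF2, 10 members had a peak in shCTR and 17 in shPHF19L#4, against 5.87% and 10.5% of all genes. The replicate 2 list marked 33 and 36 members. Only FOXD4 and FOXJ3 had no peak in any of the 14 lists, against 33.4% of all genes. In the map of covered lengths, the members with a PHF19 region stand among the tissue-restricted rows, with FOXP1 as the exception among the broadly expressed genes.

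**Figure D1:**
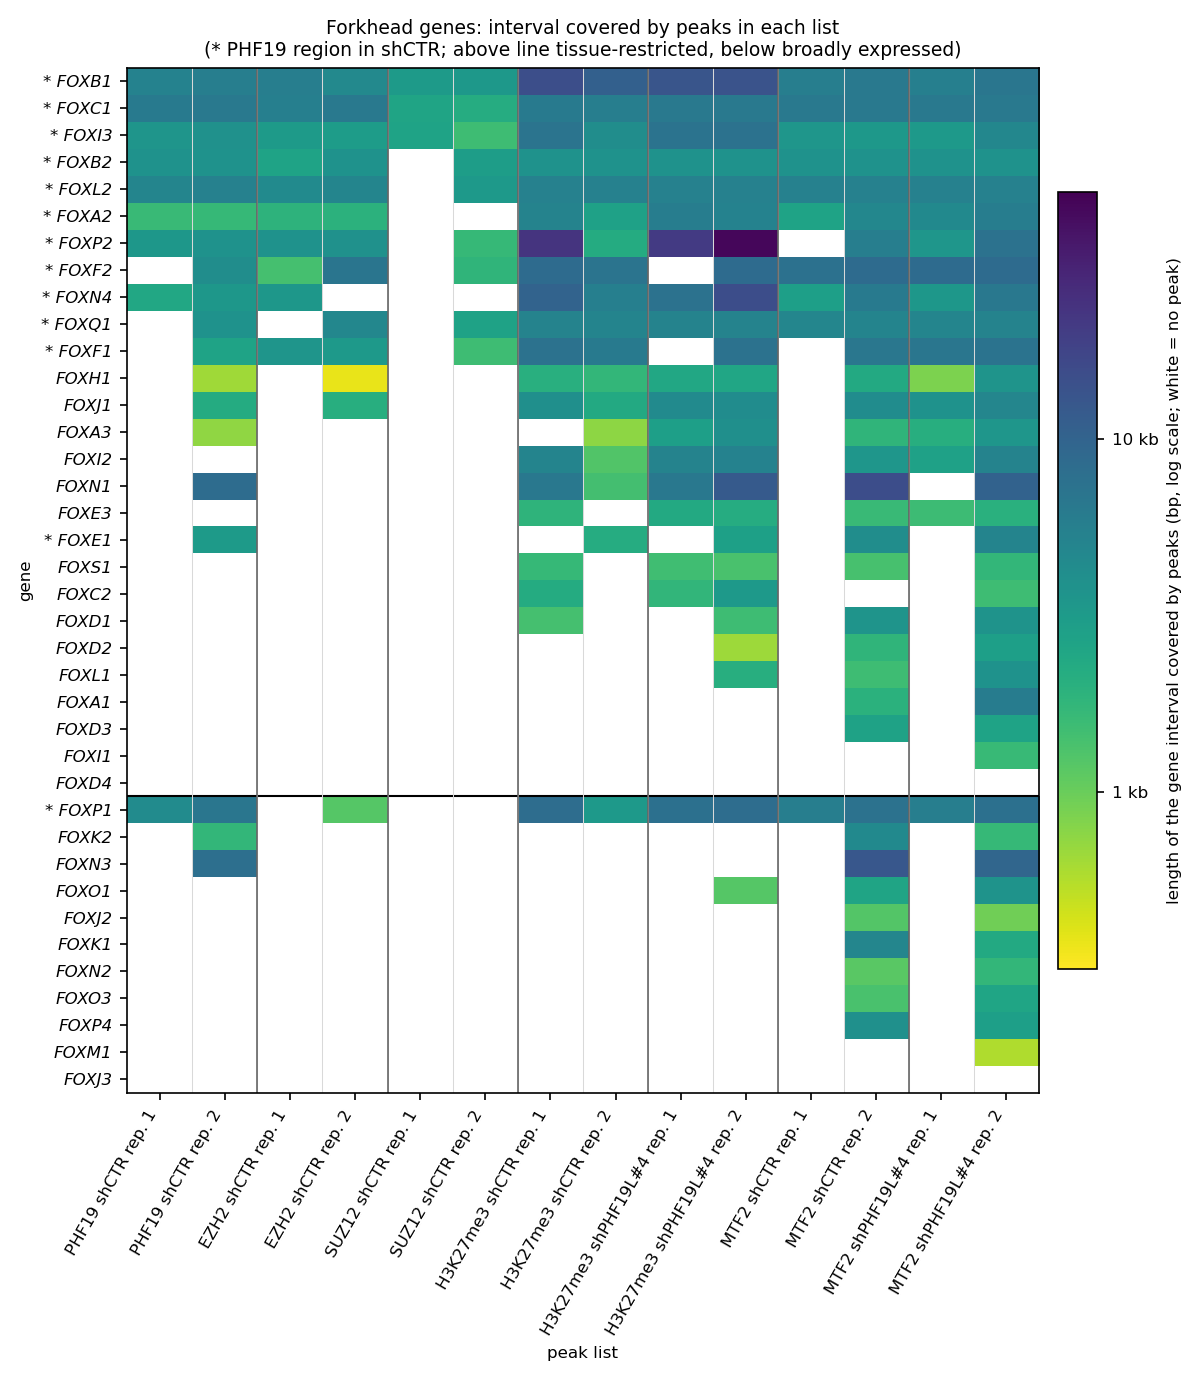
Length of each gene's interval covered by peaks (bp, log colour scale, white for no peak), with the 38 members as rows and the 14 peak lists as columns. Asterisks mark the 13 members with a PHF19 region, and the line separates 27 tissue-restricted members from 11 broadly expressed ones. FOXB1, FOXC1 and FOXI3 have peaks in all 14 lists, and FOXD4 and FOXJ3 in none.

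The division was uneven between members classed as made in few tissues and members classed as made in many. The classes were assigned from general knowledge, with earlier results of these data known, so the split is a description and not a test. Among 27 members made in restricted tissues or stages, 12 had a PHF19 region, 16 an H3K27me3 region and 10 were free of Polycomb. Among 11 members made in most tissues, FOXP1 alone had PHF19, H3K27me3 and MTF2 regions, and the other 10 were free of Polycomb. With 86.0% of all genes free, the broadly made members were near the genes at large, and a lower share of the tissue-restricted members was free. The counts depend on the replicate. Without replicate 2 the same 10 of 11 and 8 of 27 had no shCTR peak, against 79.0% of all genes, and without replicate 1, 2 of 11 and 3 of 27, against 46.0%, since 8 of the 10 had an MTF2 peak in replicate 2 and FOXK2 and FOXN3 also a PHF19 peak. The 10 were FOXJ2, FOXJ3, FOXK1, FOXK2, FOXM1, FOXN2, FOXN3, FOXO1, FOXO3 and FOXP4. The tissue-restricted members free of Polycomb were FOXA1, FOXA3, FOXC2, FOXD1, FOXD2, FOXD3, FOXD4, FOXE3, FOXI1 and FOXL1. Of the 18 members with any region, FOXE1 had PHF19 without an H3K27me3 region, whereas FOXH1, FOXI2, FOXJ1, FOXN1 and FOXS1 had H3K27me3 without a row in the PHF19 table.

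The DNA just before the start shows what these classes look like in sequence. The 300 bases that end at the base before the gene start were read from the hg19 genome on the strand of the gene, 5′ to 3′, with each CG dinucleotide in capitals. FOXI3 (chr2:88752212-88752511, minus strand), FOXC1 (chr6:1609850-1610149, plus strand) and FOXP2 (chr7:113726082-113726381, plus strand) were chosen as members with PHF19, EZH2 and H3K27me3 whose windows hold 32, 42 and 27 CG. FOXA2 (chr20:22566094-22566393, minus strand) carries the same features over a window with 9 CG. FOXA1 (chr14:38065265-38065564, minus strand) is its Polycomb-free relative, with 19 CG. FOXO3 (chr6:108880738-108881037, plus strand) is a free gene with 45 CG, and FOXJ3 (chr1:42801549-42801848, minus strand) a gene with no peak in any list and 8 CG. The median over all protein-coding genes was 16 CG.
FOXI3: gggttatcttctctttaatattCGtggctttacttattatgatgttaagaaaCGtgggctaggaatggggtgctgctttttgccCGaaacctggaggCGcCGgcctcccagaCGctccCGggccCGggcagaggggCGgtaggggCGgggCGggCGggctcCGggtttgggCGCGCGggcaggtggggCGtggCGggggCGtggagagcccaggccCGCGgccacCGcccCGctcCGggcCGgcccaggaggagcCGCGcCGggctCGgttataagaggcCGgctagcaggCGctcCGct
FOXC1: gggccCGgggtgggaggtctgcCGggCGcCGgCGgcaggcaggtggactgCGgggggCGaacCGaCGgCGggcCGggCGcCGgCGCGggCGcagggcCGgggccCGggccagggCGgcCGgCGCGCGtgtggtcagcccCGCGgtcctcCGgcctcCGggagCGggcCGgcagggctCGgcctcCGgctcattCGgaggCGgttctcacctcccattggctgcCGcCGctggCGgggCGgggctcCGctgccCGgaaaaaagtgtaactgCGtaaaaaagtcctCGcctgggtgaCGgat
FOXP2: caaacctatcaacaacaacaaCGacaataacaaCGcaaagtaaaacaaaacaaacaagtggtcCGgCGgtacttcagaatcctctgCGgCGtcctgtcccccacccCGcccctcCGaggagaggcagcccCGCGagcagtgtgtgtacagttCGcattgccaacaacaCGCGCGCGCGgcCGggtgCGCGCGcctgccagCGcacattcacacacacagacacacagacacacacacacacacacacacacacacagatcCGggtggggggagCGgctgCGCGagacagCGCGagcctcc
FOXA2: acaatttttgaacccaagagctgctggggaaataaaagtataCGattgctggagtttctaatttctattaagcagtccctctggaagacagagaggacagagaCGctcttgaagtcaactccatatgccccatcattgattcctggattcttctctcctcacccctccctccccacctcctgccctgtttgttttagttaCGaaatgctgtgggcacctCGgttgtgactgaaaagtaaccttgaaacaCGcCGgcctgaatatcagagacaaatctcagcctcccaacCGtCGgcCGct
FOXA1: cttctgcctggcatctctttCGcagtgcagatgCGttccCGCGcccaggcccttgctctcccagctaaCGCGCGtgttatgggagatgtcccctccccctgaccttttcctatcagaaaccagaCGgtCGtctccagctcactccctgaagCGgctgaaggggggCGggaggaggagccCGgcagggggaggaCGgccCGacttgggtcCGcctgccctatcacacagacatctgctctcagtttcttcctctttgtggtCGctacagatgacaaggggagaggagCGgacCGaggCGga
FOXO3: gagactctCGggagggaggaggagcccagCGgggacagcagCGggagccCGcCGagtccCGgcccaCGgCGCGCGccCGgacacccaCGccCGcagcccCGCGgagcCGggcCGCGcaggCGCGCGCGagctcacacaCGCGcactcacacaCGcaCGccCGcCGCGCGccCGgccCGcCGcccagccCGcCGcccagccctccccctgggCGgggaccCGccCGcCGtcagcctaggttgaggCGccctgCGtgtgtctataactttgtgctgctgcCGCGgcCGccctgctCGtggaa
FOXJ3: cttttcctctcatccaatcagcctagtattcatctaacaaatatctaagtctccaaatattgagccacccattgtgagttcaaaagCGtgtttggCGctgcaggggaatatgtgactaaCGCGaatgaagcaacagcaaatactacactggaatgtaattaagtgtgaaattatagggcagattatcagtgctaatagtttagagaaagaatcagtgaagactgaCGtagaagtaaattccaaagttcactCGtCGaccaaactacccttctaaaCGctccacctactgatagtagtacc

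PHF19 peaks of both replicates covered the whole 300 bases at FOXI3, FOXC1, FOXP2 and FOXA2, and no shCTR list had a peak over any of them at FOXA1 or FOXJ3. At FOXO3 the MTF2 list of replicate 2 covered the window and no other shCTR list did. CG content did not separate the classes. The 13 members with a PHF19 region held a median of 27 CG in this window (range 9 to 42) and the 25 others a median of 24 (range 6 to 50). The highest count, 50, belonged to FOXK1, which is free of Polycomb.

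The FOXA genes encode pioneer factors of endoderm and of the organs derived from it, and each of the 3 stood in a different state. FOXA2, which directs definitive endoderm and the floor plate, carried PHF19, EZH2, MTF2 and H3K27me3. Its PHF19 region (chr20:22565068-22566959) spanned -866 to 1025 bp from the gene start, with a log2 concentration of 6.18 in shCTR and 4.27 in input, a difference of 1.91. In shCTR, peaks of replicates 1 and 2 covered 1622 and 1679 bp of the FOXA2 interval for PHF19, 1879 and 1938 bp for EZH2, 2649 and 4835 bp for MTF2 and 5228 and 2782 bp for H3K27me3. No SUZ12 peak was called there, yet the SUZ12 table held a row over the start. In shPHF19L#4, coverage was 5874 and 5290 bp for H3K27me3 and 4508 and 5863 bp for MTF2, more than in shCTR in each replicate. EZH2 concentration (log2) at FOXA2 was 7.04 in shCTR and 8.01 in shPHF19L#4, a difference of 0.97. For SUZ12 the values were 5.19 and 6.37 (difference 1.18), and for MTF2 8.46 and 9.51 (difference 1.05).

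FOXA1, the pioneer factor of luminal prostate cells, was free of Polycomb (chr14:38058757-38065264, minus strand). Its only peaks were MTF2 peaks of replicate 2, which covered 1974 bp in shCTR and 5974 bp in shPHF19L#4, and no DiffBind table held a row for it. FOXA3, a liver and gut factor, was free of Polycomb in shCTR by the rule of both replicates and had regions in shPHF19L#4. H3K27me3 peaks covered 742 bp in replicate 2 alone in shCTR, and 2899 and 4039 bp in shPHF19L#4. MTF2 peaks covered 1840 bp in replicate 2 alone in shCTR, and 2096 and 3489 bp in shPHF19L#4. A PHF19 peak of 739 bp in replicate 2 had no counterpart in replicate 1 or in the PHF19 table. FOXA3 showed the largest differences of any member in the EZH2 table, 5.11 and 6.86 (difference 1.75), and in the MTF2 table, 6.47 and 8.06 (difference 1.59). These exceeded 96.0% and 99.0% of the rows of those tables. In the H3K27me3 table its values were 6.89 and 8.09 (difference 1.20). The shCTR value was above 81.7% of the rows, so being called free does not mean a low control signal. Of the 32-base words within 2.5 kb of its start, 12.8% occur elsewhere in the genome.

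FOXQ1, FOXF2 and FOXC1 lie side by side within 304300 bp of chromosome 6p25, and all 3 carried PHF19, MTF2 and H3K27me3. FOXC1 is needed for the front of the eye, FOXF2 for mesenchyme of the gut and palate, and FOXQ1 for hair and the stomach lining. H3K27me3 peaks covered 35.6% and 18.4% of the cluster in replicates 1 and 2 of shCTR, and 25% and 41.5% in shPHF19L#4, so that the replicates differed in opposite directions. MTF2 peaks covered 9.88% and 17.2% in shCTR, and 12.4% and 22.1% in shPHF19L#4. PHF19 peaks covered 3.47% and 9.28%, EZH2 peaks 3.29% and 8.60%, and SUZ12 peaks 1.79% and 2.34%, all in shCTR. In shCTR the mark thus covered more of the cluster than any of the proteins in each replicate.

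FOXC1 was covered almost from end to end. Its PHF19 region (chr6:1603941-1614791, -6209 to 4641 bp from the start) had a log2 concentration of 10.36 in shCTR and 7.32 in input, a difference of 3.04. In shCTR, coverage of its interval of 6483 bp was 6270 and 6483 bp for PHF19, 5672 and 6470 bp for EZH2 and 2581 and 2175 bp for SUZ12. H3K27me3 covered 6205 and 5701 bp and MTF2 6483 and 6483 bp, the full length. In shPHF19L#4, H3K27me3 and MTF2 covered the full 6483 bp in both replicates. The H3K27me3 regions of shCTR left out the gene start itself, ending at -122 bp and beginning again at 157 bp, and in shPHF19L#4 an unbroken region ran across it. EZH2 concentration was 9.36 in shCTR and 10.19 in shPHF19L#4, a difference of 0.83. SUZ12 values were 8.22 and 8.77 (difference 0.55), and MTF2 values 10.98 and 11.63 (difference 0.65), differences below those of most rows in each table.

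FOXF2 had the lowest PHF19 enrichment of the 13 members, and the region lay downstream of the start and ran past the gene end (chr6:1392877-1396317, 3066 to 6506 bp from the start), with a log2 concentration of 6.67 in shCTR and 5.67 in input, a difference of 1.00. PHF19 peaks covered 4152 bp in replicate 2 alone, and SUZ12 peaks 1815 bp in replicate 2 alone. EZH2 covered 1407 and 7055 bp, H3K27me3 8528 and 7100 bp and MTF2 7523 and 8528 bp in shCTR. In shPHF19L#4, MTF2 covered 8469 and 8528 bp. H3K27me3 covered 8528 bp in replicate 2 alone, and in replicate 1 the nearest peak lay 1705 bp from the interval. The table values at FOXF2 were 8.41 and 9.64 (difference 1.23) for EZH2 and 9.89 and 10.81 (difference 0.92) for MTF2 (log2). SUZ12 had a row downstream (2364 to 7891 bp from the start) with 6.92 and 7.49 (difference 0.57), and a row over the start (-1816 to 2339 bp) with 6.24 and 7.18 (difference 0.94).

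FOXQ1 showed the largest SUZ12 difference of the family, and its PHF19 region lay over the start (chr6:1310669-1313615, -1664 to 1282 bp). PHF19 concentration (log2) was 6.93 in shCTR and 5.46 in input, a difference of 1.47. PHF19 peaks covered 3820 bp in replicate 2 alone, EZH2 4795 bp in replicate 2 alone, and SUZ12 2682 bp in replicate 2 alone. H3K27me3 covered 5161 and 5064 bp in shCTR and 5161 and 5161 bp in shPHF19L#4. MTF2 covered 4905 and 5117 bp in shCTR and 4981 and 5161 bp in shPHF19L#4. The gene was therefore nearly filled by mark and MTF2 in both conditions, while its SUZ12 concentration was 6.80 in shCTR and 7.99 in shPHF19L#4, a difference of 1.19. EZH2 values were 8.04 and 9.63 (difference 1.59), and MTF2 values 9.79 and 10.87 (difference 1.08).

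The cluster on chromosome 16q24, which spans 75452 bp, was unevenly occupied. FOXF1, a factor of lung and gut mesenchyme, carried PHF19, EZH2, MTF2 and H3K27me3, whereas FOXC2, which forms lymphatic valves, and FOXL1, a factor of gut mesenchyme, were free of Polycomb in shCTR. The PHF19 region of FOXF1 (chr16:86541494-86544261, -2639 to 128 bp from the start) had a log2 concentration of 6.49 in shCTR and 5.19 in input, a difference of 1.30. PHF19 peaks covered 2629 bp in replicate 2 alone, and SUZ12 peaks 1514 bp in replicate 2 alone. EZH2 covered 3537 and 3203 bp and H3K27me3 7396 and 6337 bp in shCTR. MTF2 covered 6758 bp in replicate 2 alone in shCTR, and 6900 and 7289 bp in shPHF19L#4. H3K27me3 in shPHF19L#4 covered 7396 bp in replicate 2 alone. Both of those calls rest on merged regions that reach FOXF1 from outside its interval in the replicate without a peak.

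At FOXF1 the EZH2 concentration was 9.49 in shCTR and 10.66 in shPHF19L#4, a difference of 1.17, SUZ12 values were 7.42 and 8.35 (difference 0.93), and MTF2 values 10.73 and 11.72 (difference 0.99) (log2). The EZH2 row was 22130 bp wide and the H3K27me3 region of shCTR 29262 bp, both far longer than the gene of 4896 bp. FOXC2 lies 51406 bp beyond FOXF1 and had an H3K27me3 region in shPHF19L#4, -2992 to -179 bp from its start. Its H3K27me3 peaks covered 2213 bp in replicate 1 alone in shCTR, and 1795 and 3246 bp in shPHF19L#4. Over the whole cluster, H3K27me3 peaks covered 29.8% and 13.4% in shCTR and 2.78% and 38.2% in shPHF19L#4. Here too the replicates differed in opposite directions.

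FOXB1 and FOXB2, which act in the developing brain, had, with FOXC1, the broadest PHF19 regions of the family. FOXB1, a gene of the hypothalamus and mammillary bodies, carried all 5 features over a region that began well before its start (chr15:60286425-60299687, -10008 to 3254 bp). PHF19 concentration (log2) was 10.76 in shCTR and 7.38 in input, a difference of 3.38, and only 2 rows of the whole PHF19 table had a higher value in shCTR. In shCTR, coverage was 5289 and 5755 bp for PHF19, 5704 and 4579 bp for EZH2 and 3187 and 3378 bp for SUZ12. MTF2 covered 5705 and 6480 bp and H3K27me3 14808 and 10659 bp. In shPHF19L#4, MTF2 covered 5598 and 6862 bp and H3K27me3 13260 and 13762 bp, less than in shCTR in replicate 1 and more in replicate 2. FOXB1 had the smallest SUZ12 difference of the members, 7.77 and 8.23 (difference 0.46), in a row that lay -9585 to -978 bp from the start, and none of the 508 rows of that table had a smaller one. EZH2 values were 9.70 and 10.39 (difference 0.69), and MTF2 values 11.31 and 11.79 (difference 0.48). The highest control levels in the family for EZH2 and MTF2 were thus paired with small differences. These rows were also wide, 14488 bp for EZH2 and 13783 bp for MTF2, against medians of 3063 and 2842 bp over all rows. The PHF19 row was 13263 bp wide against a median of 2298 bp. The part of width in the rank of these levels was not tested.

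FOXB2, a gene without introns in the annotation, lay entirely inside its PHF19 region (chr9:79628192-79638344, -6379 to 3773 bp from the start). PHF19 concentration was 9.73 in shCTR and 7.61 in input, a difference of 2.12 (log2). PHF19 and MTF2 covered the whole interval of 3799 bp in both shCTR replicates, EZH2 covered 2679 and 3799 bp, and H3K27me3 3799 and 3772 bp. SUZ12 covered 3011 bp in replicate 2 alone. In shPHF19L#4, H3K27me3 and MTF2 covered all 3799 bp in both replicates. Coverage by H3K27me3 and MTF2 was already full or nearly full in shCTR and could hardly be higher, and the table values give the differences. These were 9.37 and 10.25 (difference 0.88) for EZH2 and 10.74 and 11.53 (difference 0.79) for MTF2. SUZ12 had a row before the gene (-5248 to -2475 bp from the start) with 6.73 and 7.28 (difference 0.55), and a row over the gene (292 to 2016 bp) with 6.09 and 6.96 (difference 0.87).

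FOXE1 and FOXE3, factors of the thyroid and of the lens, differed in the features they carried. FOXE1 had a PHF19 region over its start (chr9:100613179-100616319, -2329 to 811 bp) at a log2 concentration of 6.71 in shCTR and 5.59 in input, a difference of 1.12, and it was the only member with PHF19 and no other region. PHF19 peaks covered 3141 bp in replicate 2 alone. H3K27me3 covered 2162 bp in replicate 2 alone in shCTR and 2808 bp in replicate 2 alone in shPHF19L#4. MTF2 covered 4145 bp in replicate 2 alone in shCTR and 5089 bp in replicate 2 alone in shPHF19L#4. Every FOXE1 peak thus came from a replicate 2 list, and no table of the shPHF19L#4 comparison had a row for it. FOXE3 had the reverse pattern, with no PHF19 but regions of H3K27me3 and MTF2 in shPHF19L#4. H3K27me3 covered 1872 bp in replicate 1 alone in shCTR, and 2319 and 2166 bp in shPHF19L#4. MTF2 covered 1605 bp in replicate 2 alone in shCTR, and 1553 and 1992 bp in shPHF19L#4. FOXE3 had the smallest H3K27me3 difference of the members, 6.36 and 7.28 (difference 0.92), and its shCTR value was above 65.6% of the rows. EZH2 values were 4.55 and 6.11 (difference 1.56), and MTF2 values 5.88 and 6.73 (difference 0.85).

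FOXI3, a gene of ectodermal placodes and appendages, was the member with the strongest PHF19 enrichment and the smallest EZH2 and MTF2 differences. Its PHF19 region (chr2:88750312-88754357, -2146 to 1899 bp from the start) had a log2 concentration of 8.92 in shCTR and 4.95 in input, a difference of 3.97, larger than 99.4% of the rows of the PHF19 table. In shCTR, coverage was 3599 and 3864 bp for PHF19, 3168 and 3075 bp for EZH2, 2673 and 1510 bp for SUZ12 and 3506 and 3373 bp for MTF2. H3K27me3 covered 7126 and 4170 bp in shCTR and 7209 and 7418 bp in shPHF19L#4. MTF2 in shPHF19L#4 covered 3219 and 4773 bp. EZH2 concentration at FOXI3 was 7.93 in shCTR and 8.43 in shPHF19L#4, a difference of 0.50, and 1.37% of the rows of the table had a smaller difference. MTF2 values were 9.21 and 9.66 (difference 0.45), with 2.28% of the rows below. FOXI3 had no row in the SUZ12 table, and absence from a table that lists only rows past the authors' P threshold does not show that SUZ12 was unchanged. FOXI2 carried H3K27me3 without a PHF19 peak, and FOXI1, a gene of the inner ear and kidney, had no shCTR peak.

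FOXL2, the factor that maintains ovarian granulosa cells, carried PHF19, EZH2, MTF2 and H3K27me3 across the whole gene (chr3:138661451-138669775, -3796 to 4528 bp from the start). PHF19 concentration (log2) was 9.42 in shCTR and 7.00 in input, a difference of 2.42. PHF19 covered 4997 and 5377 bp of the interval of 5414 bp, and EZH2 4478 and 4956 bp. SUZ12 covered 3268 bp in replicate 2 alone. H3K27me3 and MTF2 covered the full 5414 bp in both replicates of both conditions. As at FOXB2, the difference shows in the concentrations alone, with 9.02 and 10.02 (difference 1.00) for EZH2, 7.49 and 8.29 (difference 0.80) for SUZ12 and 10.61 and 11.38 (difference 0.77) for MTF2.

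Among genes of single specialised cell types, FOXN4, which acts in retinal and spinal progenitors, had a PHF19 region over its start (chr12:109745543-109748987, -1898 to 1546 bp). PHF19 concentration was 7.54 in shCTR and 5.50 in input, a difference of 2.04 (log2). In shCTR, coverage was 2416 and 3445 bp for PHF19, 2866 and 6266 bp for MTF2 and 10049 and 5668 bp for H3K27me3. EZH2 covered 3434 bp in replicate 1 alone, so FOXN4 had no EZH2 region by the rule of both replicates. In shPHF19L#4, MTF2 covered 3463 and 6647 bp and H3K27me3 7479 and 15140 bp, the latter less than shCTR in replicate 1 and more in replicate 2. EZH2 values were 7.54 and 8.51 (difference 0.97), and MTF2 values 8.72 and 9.55 (difference 0.83). FOXJ1, the master regulator of motile cilia, FOXN1, the factor of thymic epithelium, FOXH1, which carries Nodal signals to DNA, and FOXS1 had H3K27me3 regions without a row in the PHF19 table. PHF19 peaks still covered 8373 bp in replicate 2 alone at FOXN1, 2204 bp in replicate 2 alone at FOXJ1 and 646 bp in replicate 2 alone at FOXH1, and EZH2 peaks 2085 bp in replicate 2 alone at FOXJ1 and 375 bp in replicate 2 alone at FOXH1. FOXE1, FOXF1, FOXF2 and FOXQ1, which have a row, also had PHF19 peaks in replicate 2 alone. FOXJ1, FOXH1 and FOXS1 also had an MTF2 region in shPHF19L#4. At FOXS1 the H3K27me3 region of shCTR and the MTF2 region of shPHF19L#4 had a peak inside the interval in 1 replicate only.

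The FOXP genes are long, and their PHF19 regions sat at starts of transcripts. FOXP2, known for its role in speech circuits, had PHF19 over its start (chr7:113722221-113727665, -4161 to 1283 bp), in a region that held the starts of 7 of its 32 transcripts. PHF19 concentration (log2) was 8.79 in shCTR and 6.01 in input, a difference of 2.78. In shCTR, coverage was 3434 and 3784 bp for PHF19, 3793 and 3877 bp for EZH2 and 23618 and 2231 bp for H3K27me3. SUZ12 covered 1675 bp in replicate 2 alone, and MTF2 5687 bp in replicate 2 alone. In shPHF19L#4, MTF2 covered 3528 and 7394 bp and H3K27me3 21372 and 46010 bp. The H3K27me3 replicates thus stood apart at FOXP2 in both conditions, with 18 peaks against 1 in shCTR and 15 against 29 in shPHF19L#4. FOXP2 had the largest H3K27me3 difference among the 4 members in that table, 3.78 and 5.10 (difference 1.32), but the row (chr7:114169894-114171081) overlapped no exon and was centred 444106 bp downstream of the start. At the start, EZH2 values were 7.98 and 8.79 (difference 0.81), SUZ12 values 6.31 and 7.07 (difference 0.76) and MTF2 values 9.29 and 9.97 (difference 0.68).

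FOXP1, which is widely made and shapes B cells, heart and lung, was the only broadly expressed member with PHF19. It had a pair of PHF19 regions. The outer (chr3:71630016-71633148) lay at the annotated gene start and held the starts of 22 of its 71 transcripts, with a PHF19 concentration (log2) of 7.22 in shCTR and 5.20 in input, a difference of 2.02. The inner (chr3:71112921-71115857) lay 517272 to 520208 bp into the gene and held the starts of 8 transcripts, with a concentration of 7.06 in shCTR and 4.73 in input, a difference of 2.33. H3K27me3 and MTF2 regions were found at both places. In shCTR, coverage was 4379 and 6917 bp for PHF19, 5696 and 7497 bp for MTF2 and 8152 and 3226 bp for H3K27me3. EZH2 covered 1207 bp in replicate 2 alone. In shPHF19L#4, MTF2 covered 5728 and 7726 bp and H3K27me3 7733 and 8151 bp. EZH2 values were 6.58 and 7.78 (difference 1.20) at the outer region and 5.88 and 6.93 (difference 1.05) at the inner. For MTF2 they were 8.53 and 9.44 (difference 0.91) at the outer and 7.66 and 8.41 (difference 0.75) at the inner. FOXP4, a broadly expressed relative, was free of Polycomb.

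FOXM1, FOXO1 and FOXO3, which act in growth control and metabolism, were free of Polycomb like 86.0% of all genes. FOXM1, which drives genes of mitosis, had no shCTR peak, and its only peak in shPHF19L#4 was 579 bp of MTF2 in replicate 2. FOXO1 and FOXO3, the insulin-regulated factors of stress and metabolism, had no PHF19, EZH2 or SUZ12 peak and no H3K27me3 peak in shCTR. MTF2 of replicate 2 covered 2600 bp of FOXO1 in shCTR and 3719 bp in shPHF19L#4. At FOXO3 it covered 1355 and 2555 bp. FOXO1 also had an H3K27me3 peak of 1208 bp in replicate 2 of shPHF19L#4. None of the 3 genes had a row in any DiffBind table, which is also the common state, since 9.55% of all genes had an EZH2 row and 9.03% an MTF2 row. In all, 10 of the 20 free members had MTF2 of replicate 2 as their only kind of peak in shCTR, a list that marked 49.6% of all genes.

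The members without any peak need a reading of their own. At FOXD4, 79.0% of the 32-base words within 2.5 kb of the start occur elsewhere in the genome, against a median of 1.83% over the members. The authors kept reads that map to 1 place, so missing peaks at FOXD4 cannot be read as missing protein. At FOXJ3 the share was 4.71%, and the gene of 159339 bp had no peak in any list. FOXM1 had 17.7%, and FOXK2, the highest after FOXD4, 20.3%.

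**Figure D2:**
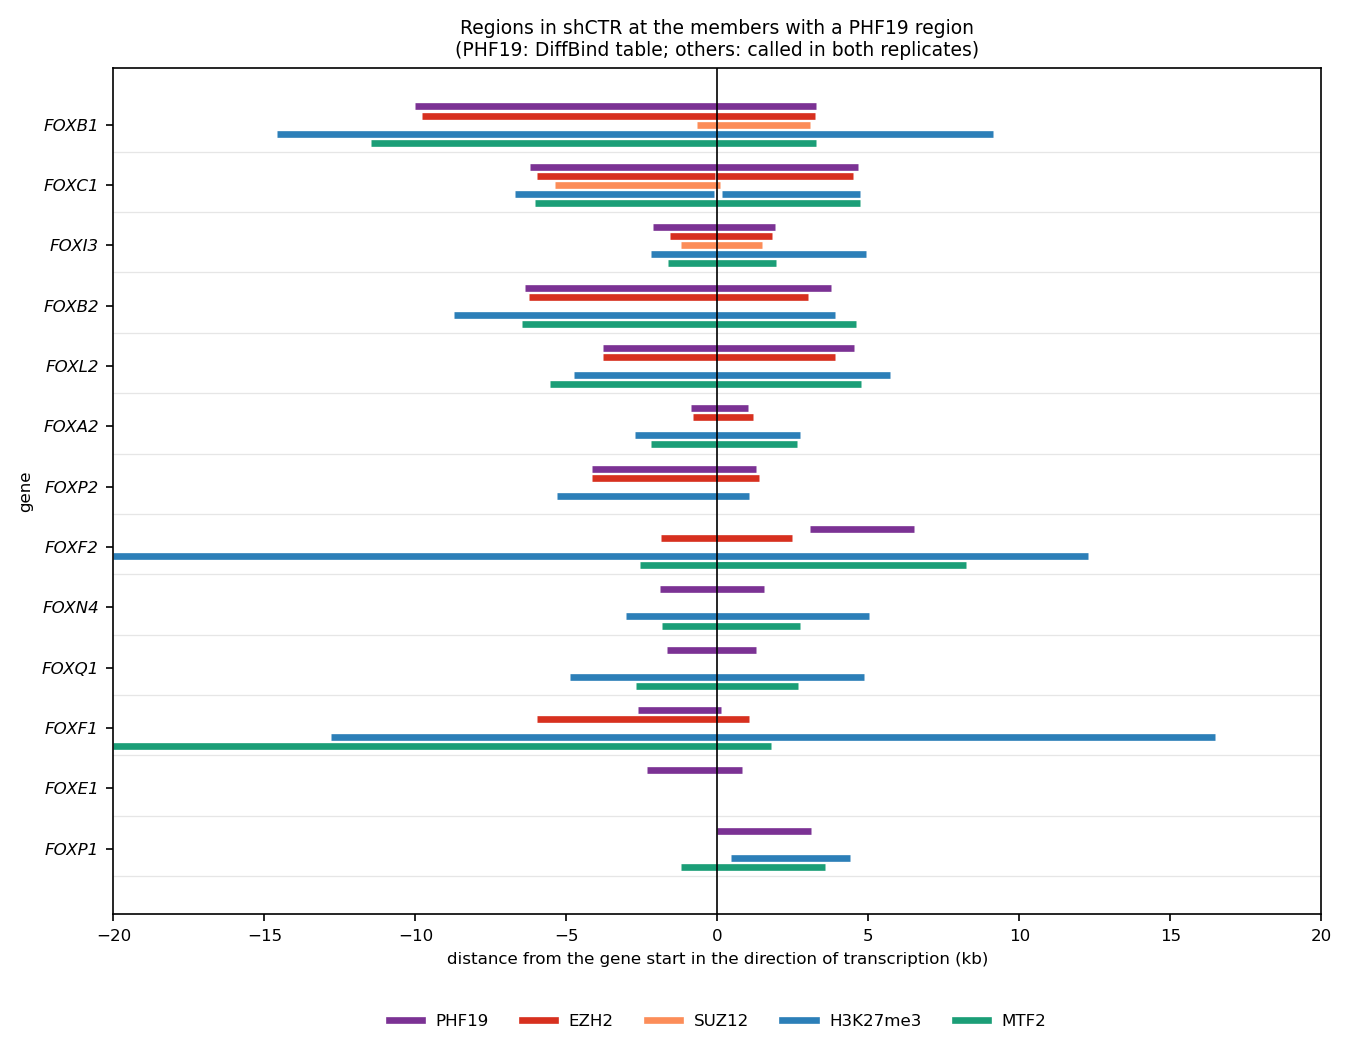
Regions in shCTR at the 13 members with PHF19, by distance from the gene start in the direction of transcription (kb). PHF19 bars are rows of its DiffBind table and the other bars are regions called in both replicates. PHF19 spans the start in all members but FOXF2, and SUZ12 bars appear at FOXB1, FOXC1 and FOXI3.

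The regions were stacked around the gene start. PHF19 spanned the start at 12 of 13 members, with FOXF2 as the exception. EZH2 had nearly the same bounds as PHF19 at FOXP2, where PHF19 ran from -4161 to 1283 bp and EZH2 from -4156 to 1376 bp, and at FOXA2, where they ran from -866 to 1025 bp and from -796 to 1172 bp. At FOXF2 the EZH2 region called in both replicates lay apart from PHF19, from -1874 to 2460 bp. The EZH2 row of the DiffBind table ran from -2282 to 7819 bp there, across the PHF19 region. The gap thus belongs to the rule of both replicates and does not show that EZH2 was missing at the PHF19 region. The H3K27me3 region reached past the PHF19 region on both sides at FOXA2, FOXB1, FOXB2, FOXI3, FOXL2, FOXN4, FOXQ1, FOXF1 and FOXF2. At FOXI3 PHF19 ended at 1899 bp and H3K27me3 at 4922 bp. The 3 SUZ12 regions lay inside the PHF19 region, at FOXI3 from -1192 to 1480 bp.

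In cells with the hairpin against the long PHF19 isoform, more forkhead genes had MTF2 regions, and for H3K27me3 the direction depended on the replicate. MTF2 regions lay in 18 members in shPHF19L#4, against 9.81% of all genes, and H3K27me3 regions in 20, against 18.8%. Without replicate 2, H3K27me3 was found at 20 members in shCTR and 18 in shPHF19L#4, and without replicate 1 at 18 and 25. FOXA3, FOXC2 and FOXE3 had an H3K27me3 region in shPHF19L#4 and none in shCTR, a share of members near the 6.30% of all genes. FOXA3, FOXE3, FOXH1, FOXI2, FOXJ1, FOXP2 and FOXS1 did so for MTF2, against 4.97%. Of the 38 members 0 had an H3K27me3 region in shCTR and none in shPHF19L#4, against 0.730% of all genes, and 0 had such a loss for MTF2, against 0.159%. At FOXF1 and FOXF2 this rests on merged regions that reach the interval from outside, since replicate 1 of shPHF19L#4 had no H3K27me3 peak inside it (nearest 25494 and 1705 bp away) and both shCTR replicates did. With a peak of each replicate inside the interval as the rule, these 2 would count as losses. The number of regions was also higher over the whole genome, with 9256 in shCTR and 22205 in shPHF19L#4 for H3K27me3, and 1474 and 3136 for MTF2. Without replicate 1, MTF2 was found at 33 members in shCTR and 36 in shPHF19L#4, and without replicate 2 at 10 and 17.

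The DiffBind tables of the shPHF19L#4 comparison held rows for 17 members for EZH2, against 9.55% of all genes. MTF2 rows were found for 17 members, against 9.03%, and they were the same 17 genes. SUZ12 rows were found for 9 members, against 2.44%, and H3K27me3 rows for 4, against 3.53%. The tables list only rows past the authors' P threshold, and 2407 of 2408 EZH2 rows, all 508 SUZ12 rows, 2539 of 2546 MTF2 rows and 1048 of 1049 H3K27me3 rows are higher in shPHF19L#4. The direction of the members is therefore largely set by the tables, and all of their rows are higher in shPHF19L#4. Where a gene had several rows, the row with the highest control concentration was used.

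The size of the differences was close to that of the whole table for EZH2, MTF2 and H3K27me3, and smaller for SUZ12. For EZH2 the median difference (log2) was 1.17 over the 17 members and 1.16 over all rows, with members from 0.50 at FOXI3 to 1.75 at FOXA3. For MTF2 it was 0.91 against 0.87, from 0.45 at FOXI3 to 1.59 at FOXA3. For SUZ12 the median was 0.76 over 9 members and 0.96 over all rows, from 0.46 at FOXB1 to 1.19 at FOXQ1, and 2 of the 9 lay above the table median. With the row nearest the start in place of the row with the highest control concentration, the SUZ12 median was 0.87. The 4 members in the H3K27me3 table had a median of 1.11 against 1.13, from 0.92 at FOXE3 to 1.32 at FOXP2. PHF19 enrichment over input in shCTR had a median of 2.04 over 13 members against 1.58 over all 1245 rows, from 1.00 at FOXF2 to 3.97 at FOXI3. No test was made, since 2 replicates against 2 cannot give an exact two-sided permutation p below 0.333 and the tables hold no value per replicate.

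**Figure D3:**
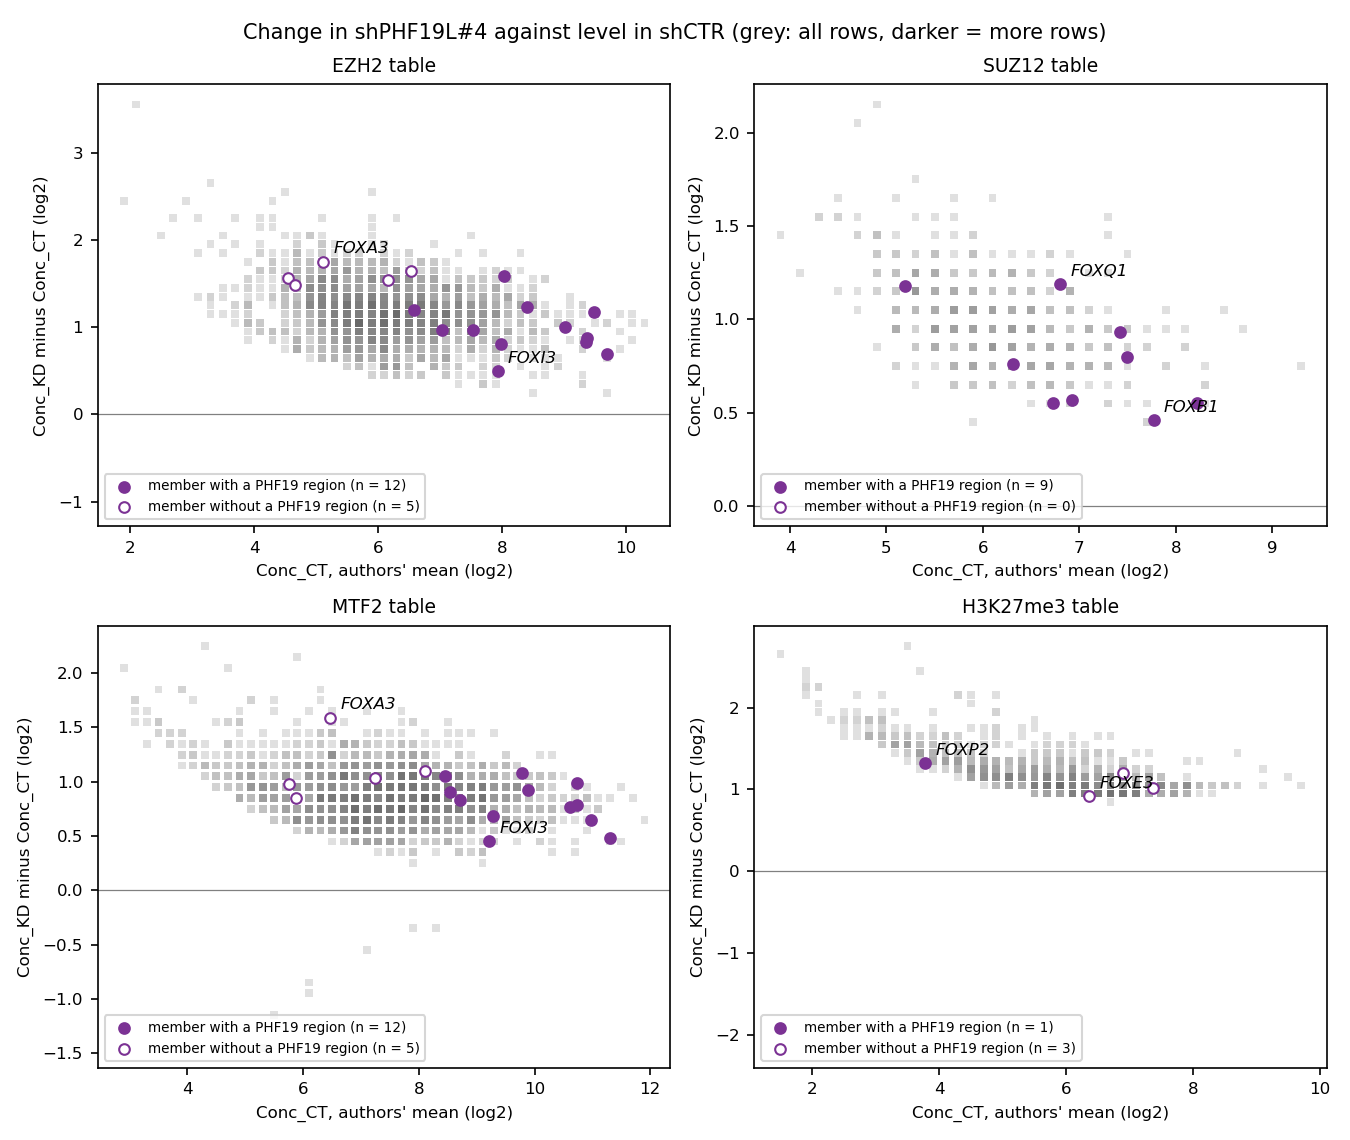
Difference between shPHF19L#4 and shCTR (Conc_KD minus Conc_CT, log2) against the shCTR concentration (Conc_CT, log2) in 4 DiffBind tables. Purple points are members, filled where the gene has a PHF19 region, and grey squares are all rows. In the EZH2 table the members lie between 0.50 (FOXI3) and 1.75 (FOXA3), and the tables list only rows past a threshold.

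The members with the largest EZH2 differences were FOXA3 (1.75), FOXJ1 (1.64) and FOXQ1 (1.59). Their control concentrations were 5.11, 6.53 and 8.04, against a median of 7.93 over the 17 members. The 12 members with a PHF19 region had a median EZH2 difference of 0.97 (0.50 to 1.59) and a median control concentration of 8.22. The 5 without a row in the PHF19 table, FOXA3, FOXE3, FOXH1, FOXI2 and FOXJ1, had a median difference of 1.56 (1.48 to 1.75) at a control concentration of 5.11. FOXA3, FOXH1 and FOXJ1 of these had a PHF19 peak in replicate 2, so the contrast is one of rows past a threshold, not of PHF19 present and absent. In shCTR, FOXA3, FOXE3 and FOXI2 had no EZH2 peak and FOXH1 and FOXJ1 had one in replicate 2 alone. The table lists only rows past the authors' P threshold. The part that this filter had in the larger difference of the 5 was not tested. Near the control concentration of FOXI2, 4.66, the table also listed 7 rows with a difference near 0.7. These rows do not show how the filter acted on the 5 genes. No finding about PHF19 is drawn from the larger difference of the 5. The EZH2 rows of the 5 were 1701 to 3843 bp wide, and those of the 12 were 3648 to 22130 bp wide. The part of width in their control concentrations was not tested. Over all rows of the table the medians were 1.08 with PHF19 and 1.21 without. MTF2 gave medians of 0.81 for the 12 and 1.03 for the same 5, and 0.82 and 0.89 over all rows. Spearman's rho between control concentration and difference was -0.61 over the 17 members for EZH2 and -0.55 for MTF2, and -0.23 and -0.17 over all rows. For SUZ12 rho was -0.53 over 9 members and -0.47 over all rows. For H3K27me3 rho was -0.68 over all rows and was not computed for its 4 members. Among the 12 members with a PHF19 region alone it was -0.16 for EZH2 and -0.37 for MTF2, so the EZH2 value rests largely on the other 5. This correlation is across genes, which are not independent replicates, and the difference contains the control value, which alone favours a negative sign.

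PHF19 enrichment and EZH2 difference can be set side by side at the extremes. FOXI3, FOXB1 and FOXC1 had the highest PHF19 enrichment, at 3.97, 3.38 and 3.04, and EZH2 differences of 0.50, 0.69 and 0.83. FOXF2, FOXF1 and FOXQ1, with PHF19 enrichment of 1.00, 1.30 and 1.47, had EZH2 differences of 1.23, 1.17 and 1.59. FOXE1 at 1.12 had no EZH2 row. The values share the control cells and no test was made.

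Covered length gave a replicate-dependent picture for H3K27me3. In replicate 1, of 21 members with a peak in either condition, 9 had more of the interval covered in shPHF19L#4, 9 less and 3 the same, against 42.4% of all such genes with more. In replicate 2, 24 of 25 members had more, against 98.5%. MTF2 covered more in shPHF19L#4 at 12 of 17 members in replicate 1, against 85.8%, and at 25 of 36 in replicate 2, against 59.8%. The summed length of all H3K27me3 peaks was 108 and 30.4 Mb in shCTR and 96.9 and 159 Mb in shPHF19L#4, so the lists as a whole differed in the same way. The H3K27me3 peaks within member intervals had median lengths of 2297 and 2560 bp in shCTR and 3079 and 1857 bp in shPHF19L#4.

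**Figure D4:**
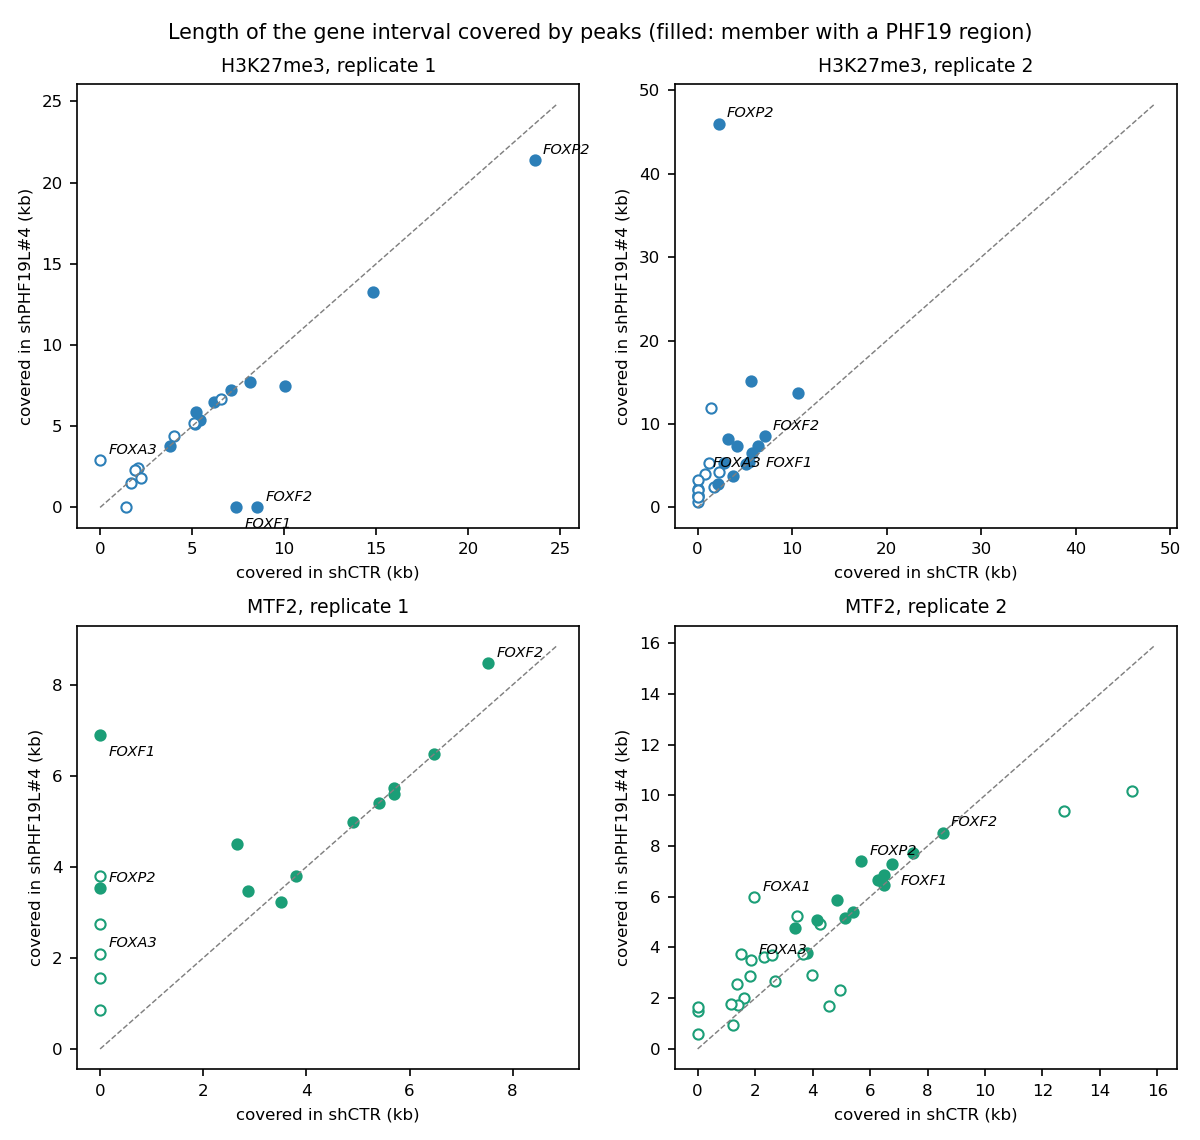
Covered length of each member's interval (kb) in shPHF19L#4 against shCTR, for H3K27me3 and MTF2 in each replicate, with the line of equal coverage. Filled points are members with a PHF19 region. H3K27me3 points scatter around the line in replicate 1 (9 of 21 above) and lie above it in replicate 2 (24 of 25).

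CpG content at the start did not set Polycomb-bound members apart. The observed to expected CpG ratio over 500 bp to each side of the start had a median of 0.77 in the 17 members with H3K27me3 and 0.81 in the 21 without, and 0.67 and 0.69 over all genes. By PHF19 the medians were 0.82 in 13 members and 0.80 in 25, against 0.76 and 0.68 over all genes. Among members with H3K27me3, those with PHF19 had ratios from 0.66 at FOXA2 to 1.02 at FOXI3. The lowest ratios belonged to members with H3K27me3 and no PHF19 region, FOXN1 at 0.36, FOXH1 at 0.39 and FOXS1 at 0.45, the last shared with Polycomb-free FOXI1. FOXI2 at 0.77 and FOXJ1 at 0.72 shared that state at higher ratios. Polycomb-free FOXK2 had the highest ratio of all, 1.08.

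**Figure D5:**
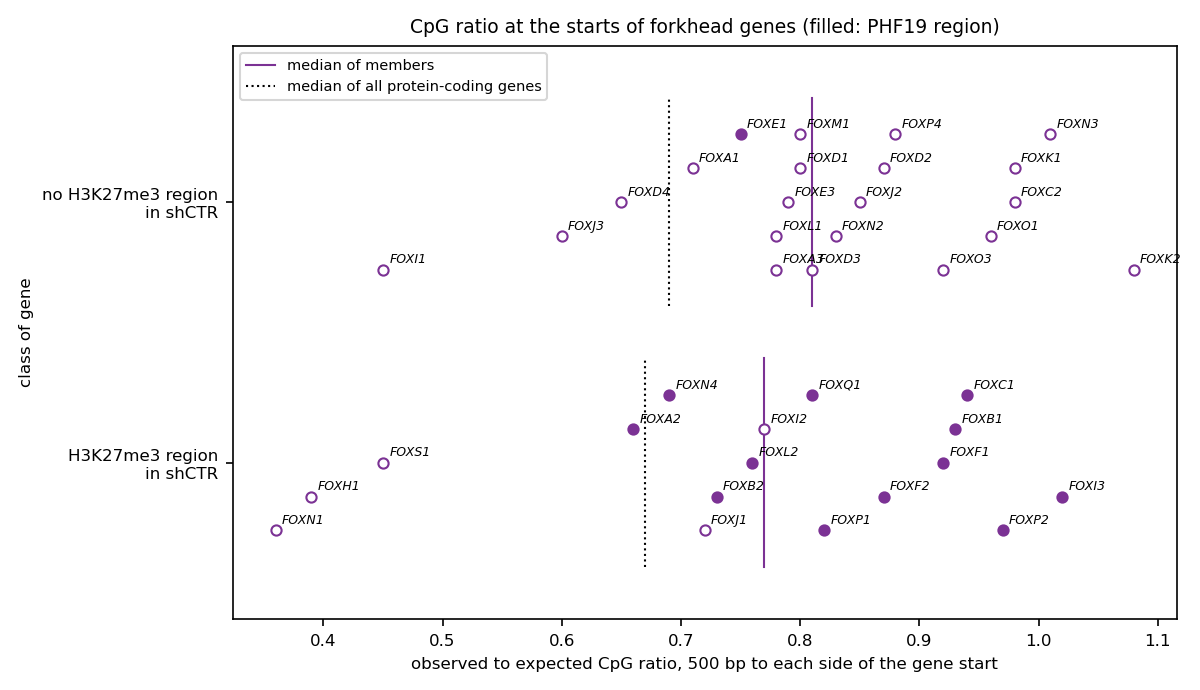
Observed to expected CpG ratio (no unit) over 500 bp to each side of the gene start, for members with and without an H3K27me3 region in shCTR. Filled points have a PHF19 region, and lines mark the medians of the members and of all protein-coding genes. The members' medians are 0.77 with H3K27me3 and 0.81 without.

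Genes that act with forkhead factors were mostly free of Polycomb in shCTR, as were 86.0% of all genes, so this does not set them apart. In the FOXO pathway PIK3CA and the target CDKN1B were free, and AKT2 was reached by an H3K27me3 region. That region had a peak inside the AKT2 interval in replicate 1 only. All 6 cell cycle targets of FOXM1 on the list, CCNB1, PLK1, AURKB, CENPF, CDC25B and BIRC5, were free by the rule of both replicates. Without replicate 1, PLK1 alone of these 6 had no shCTR peak, since CCNB1, CENPF, CDC25B and BIRC5 had an MTF2 peak and AURKB a PHF19 peak in replicate 2. Of the genes that work with FOXA1, HOXB13 was free, and the epithelial factor GRHL2 carried all 5 features. All 6 genes of the Nodal pathway that works through FOXH1 were free in shCTR, and NODAL itself had an H3K27me3 region in shPHF19L#4. The 8 housekeeping genes were free as well. Without replicate 1, 4 of the 6 Nodal genes and 5 of the 8 housekeeping genes had no shCTR peak, against 46.0% of all genes, and PIK3CA, CDKN1B and HOXB13 had a peak.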

How the data were processed

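The data were 14 ChIP-seq peak lists from DU145 cells, for the 4 proteins and the histone mark named above with 2 replicates a condition, and 5 DiffBind tables made by the authors. Per the methods, the authors mapped reads with Bowtie to hg19, or to hg19 and dm3 for libraries with Drosophila spike-in, kept reads that map to 1 place, and called peaks with MACS in each replicate against its control (default settings, shift size 100 bp). The deposited peak lists hold a MACS score per peak, except that the MTF2 lists of replicate 1 hold no value and the PHF19 list of replicate 1 holds a whole number per peak. No score was used beyond an alternative threshold. The deposited DiffBind concentrations are in log2, as means of the replicates, and no spike-in scaling is named for them. The authors cut these tables at a P of 0.05, and for PHF19 against input also at an FDR of 0.2, with the replicate as a block. The authors' columns Fold, p.value and FDR hold their fold, its P and its adjusted P, and were not used. In the DiffBind tables that compare shCTR with shPHF19L#4, the header line is repeated. The earlier line names the column read for shPHF19L#4 as Conc_INP, and the later line names it Conc_KD. The later line was followed, and every shPHF19L#4 concentration and difference given here rests on that choice.

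Genes came from GENCODE release 44 lifted to hg19, with genes of the mitochondrial genome left out. Intervals ran from 2.5 kb upstream of the start to the gene end. Coordinates were checked against the chromosome lengths (0 of 241352 peaks lay past an end), and the interval code was tested on simulated data. Python 3.11.15, numpy 2.4.6, scipy 1.17.1, pysam 0.24.0, samtools 1.23.1 and matplotlib 3.10.9 were used. Members were compared with all protein-coding genes or all rows of a table, with no test. Alternatives were regions of either replicate, each replicate left out, a stricter overlap or score, a promoter window, other ways to join rows to genes and other CpG windows.

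The members and lists were chosen with earlier results of these data known. Some genes of the lists are not reported here. Described with values in every list were the members with a PHF19 region, the extremes of each table, the members with no peak, and FOXA1, FOXM1, FOXO1 and FOXO3. FOXC2, FOXI1, FOXK1, FOXK2, FOXN1, FOXH1, FOXS1, FOXI2 and FOXJ1 and the genes whose sequences are shown were singled out after their values were seen. The breadth of expression was assigned from general knowledge, not measured. RNA-seq, input and IgG libraries, and the PHF19, EZH2 and SUZ12 ChIPs of shPHF19L#4 outside the tables, were not analysed here.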

Additional observations from a re-analysis of the deposited data

How the results depend on the processing

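Counts of members depended most on how the replicates were joined. With regions called in either replicate, EZH2 was found at 14 members in place of 9, SUZ12 at 9 in place of 3, and MTF2 at 33 in place of 11 in shCTR and at 36 in place of 18 in shPHF19L#4. With no peak of any shCTR list as the rule, 4 members were free of Polycomb in place of 20, against 43.1% of all genes. Leaving out each replicate in turn gave 3 to 9 members for SUZ12, 10 to 33 and 17 to 36 for MTF2 in shCTR and shPHF19L#4, and 5 to 18 free of Polycomb. By construction these rules differ in how many lists must hold a peak. The median difference (log2) of EZH2 was 1.04 with the mean over the rows of each gene and 1.05 with every row once. SUZ12 gave 0.87 with the row nearest the start and 0.80 with every row once, MTF2 gave 0.85 and 0.86 with the mean and with every row once, and H3K27me3 gave 1.02 in a promoter window of 2.5 kb to each side. In that window the H3K27me3 peaks had median lengths of 6579 and 2639 bp in replicates 1 and 2 of shCTR, and of 6420 and 5662 bp in shPHF19L#4. The order of the conditions thus turned around in both replicates against the gene interval (2297 and 2560 bp, and 3079 and 1857 bp), so no direction is taken from peak length. The CpG ratio over 250 bp to each side was 0.75 in members with H3K27me3 and 0.85 in those without, and 0.70 and 0.72 over all genes. Over 1 kb it was 0.80 and 0.78, and 0.61 in both classes of all genes, so the order of the members' classes turned around. For these medians the cause was not tested. The other 61 alternatives kept counts within 1.5 times, differences at the same median, and peak lengths within the spread of the replicates. They include the score threshold for MTF2 in both conditions, which could act on replicate 2 alone because the replicate 1 lists have no score, and so did not examine the list that limits those calls. They also include 6 chosen after seeing the data, in which each replicate had to have a peak inside the interval.

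No paired analysis was possible because the DiffBind concentrations carry no replicate columns and the counts of members come from no test. Covered length alone has values of each replicate in both conditions. It is compared within each replicate number in the report, where H3K27me3 covered more in shPHF19L#4 at 9 of 21 members in replicate 1 and 24 of 25 in replicate 2, and 2 pairs are too few for a test. Depth is unknown, so a missing peak is not a measure of absent protein, and the tables list only rows past a threshold, so neither is a missing row a measure of no change.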
